A study of Mus musculus with 26 samples.

Results

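The 10 matricellular and provisional-matrix genes described here are Smoc1, Smoc2, Sparc, Thbs1, Thbs2, Tnc, Postn, Fn1, Vcan and Spp1, out of 41442 gene rows in each of 2 count tables. All 10 were found by symbol in both tables. The set was chosen by measured values in part: Smoc1 was selected on its female against male difference in the E14.5 libraries, where it was among the most male-biased genes, and the other 9 were added as genes of the same kind of protein. Its values in that contrast, and in any contrast that reuses the E14.5 libraries, are therefore given as a description without a test. The other 9 genes, and the gene lists below, were chosen with earlier results of these data known. Counts and medians over the 10 genes, set beside those over all genes, therefore describe this set and do not test it. The cells came from mouse embryos that carried a Rosa-Tomato reporter, which makes a cell red once a Cre recombinase has acted in it. In 5 of the 6 RNA groups the Cre was Gli1-CreER, a tamoxifen-dependent Cre driven by the hedgehog target Gli1, and in 1 group it was Amhr2-Cre, driven by the receptor for anti-Müllerian hormone. Dams of all groups received 1 mg of tamoxifen on E12.5 and again on E13.5, so the Gli1+ label marks cells that used Gli1 around those days and their descendants. Sorted Gli1+ cells of the mesonephros gave 4 groups of 3 RNA-seq libraries: E14.5 female, E14.5 male, E16.5 female and E16.5 male. Sorted cells of the female uterus at E19.5, which the labels also call neonatal, gave 3 Amhr2+ and 3 Gli1+ libraries. The 2 tables were made with different library kits, so fetal and uterine levels were never tested against each other.

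Matricellular proteins are secreted into the extracellular matrix, where they bind collagens, growth factors and cell-surface integrins and so modulate how cells attach, move and receive signals, rather than serving mainly as structural fibres. Many of them are prominent in embryos, at sites where mesenchyme condenses around an epithelial tube, and again in wound repair. In the fetal reproductive tract the mesonephric mesenchyme surrounds the Wolffian and Müllerian ducts and gives rise to the connective tissue and smooth muscle of the male and female tracts.

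The fetal libraries held between 23382983 and 64602477 counts and the uterine ones between 28709191 and 37541045. Levels are given as CPM, counts scaled to a common library size, and in the fetal libraries 3 counts, taken as the smallest detectable number, equalled 0.0464 to 0.128 CPM. The mesenchymal label was borne out by its markers: all 8 mesenchyme markers exceeded 1 CPM in every group, with summed levels of 35213 to 66786 CPM in fetal libraries, against at most 54.1 CPM for 9 epithelial markers. Fetal sums reached 126.5 CPM for 7 endothelial markers and 3052 CPM for 8 smooth muscle markers. Most smooth muscle and some epithelial and endothelial markers also reached 1 CPM, so that level alone does not mark mesenchyme. Erythroid marker genes summed to 979 CPM in E14.5 female replicate 3 and to no more than 55.8 CPM in the other fetal libraries. The labels do not say whether replicates came from separate animals, so p-values measure the spread between these libraries, which may be technical. Because the samples are bulk RNA, fewer cells of a type and less RNA per cell cannot be told apart in any of the differences below. Together the 10 genes took 0.739% to 1.05% of all counts in the fetal libraries and 1.24% to 1.36% in the uterine ones.

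At E16.5 the sexes differed in 8 of the 10 genes. Smoc1, Smoc2, Tnc, Thbs2, Spp1 and Vcan were lower in female than in male cells, Postn and Fn1 were higher, and Thbs1 and Sparc did not pass the test. The median log2 fold change of the 10 genes, female against male, was -0.70, against 0.01 over all 17858 genes tested. Among all genes tested, 27.3% passed the same threshold (edgeR's quasi-likelihood test, Benjamini-Hochberg adjusted p under 0.05), 13.2% as higher and 14.1% as lower in females. Smooth muscle markers moved with this contrast: 7 of 8 were lower in females, and their summed level was 551 to 655 CPM in E16.5 female libraries and 1850 to 3052 CPM in male ones. Sums lower in females without overlap were also seen for gonad somatic (45.9 to 52.2 against 64.2 to 72.0 CPM) and germ cell markers. Endothelial (65.1 to 78.5 against 82.2 to 91.8 CPM) and epithelial sums (24.0 to 32.6 against 33.3 to 40.8 CPM) were lower as well. By the test, however, 2 of 6 endothelial markers were higher and 2 lower in females. Of 9 epithelial markers 1 passed, as lower (11.1%, against 27.3% of all genes). Erythroid sums were higher in females without overlap (29.6 to 55.8 against at most 19.7 CPM), but none of 7 tested markers passed. Of 8 immune markers 6 passed as higher in females, although their sums overlapped. The part of these lists in the differences of the 10 genes was not tested.

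At E14.5, the contrast on which Smoc1 was selected, the libraries of the sexes did not overlap for 7 of the 10 genes, which is true of 27.2% of all genes tested, and 6.28% of all genes passed the edgeR threshold. Smoc1, Smoc2, Tnc, Thbs1, Thbs2 and Sparc were the 6 with lower female libraries and Vcan the 1 with higher ones, and no test is given for any of them. Smooth muscle marker sums at this age were 390 to 416 CPM in females and 701 to 1000 CPM in males. Epithelial sums were 30.9 to 35.6 against 45.5 to 54.1 CPM. Gonad somatic and germ cell sums were also lower in females without overlap. Immune sums were higher in females without overlap (60.9 to 68.2 against 42.7 to 58.7 CPM), as were neural sums. The part of these lists in the differences was not tested.

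From E14.5 to E16.5 most of the genes rose. In females 7 of the 9 genes tested changed: Smoc2, Tnc, Postn, Thbs2, Sparc and Fn1 rose and Vcan fell, while Thbs1 and Spp1 did not pass the test. The background was 39.6% of all genes, with 21% rising and 18.6% falling. In males 5 of 9 rose, namely Smoc2, Postn, Thbs2, Sparc and Spp1, and none fell, against 23.3% of all genes changed, 13.1% rising and 10.2% falling. Smooth muscle markers also rose with age, 4 of 8 in females with 1 falling, and 8 of 8 in males, from summed levels of 701 to 1000 CPM in E14.5 males. Mesenchyme marker sums lay between 40520 and 42528 CPM in E14.5 females and between 57397 and 66786 CPM in E16.5 females, and in males between 35213 and 40775 CPM and then between 47962 and 59629 CPM. Endothelial marker sums were lower at the later age, in females between 65.1 and 78.5 CPM against 115 to 126.5 CPM, and in males between 82.2 and 91.8 CPM against 103 to 117 CPM. By the test, 4 of 6 endothelial markers fell in females, while in males 2 rose and 2 fell. Of 8 immune markers, 6 rose in females and 3 in males, although their sums overlapped between the ages. Epithelial sums in males were lower at E16.5 (33.3 to 40.8 against 45.5 to 54.1 CPM). Gonad somatic sums in males were higher at E16.5 (64.2 to 72.0 against 47.9 to 56.5 CPM). The part of these lists in the changes of the members was not tested. The change with age differed between the sexes in 4 of 9 genes by the interaction test, higher in females for Tnc and Fn1 and lower for Thbs2 and Vcan. For all genes that share was 10%, of which 4.66% were positive and 5.36% negative.

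In the uterus, 6 of the 9 genes tested differed between the populations. Smoc2, Tnc, Postn, Thbs2 and Sparc were lower in Amhr2+ than in Gli1+ cells, Vcan was higher, and Smoc1, Thbs1 and Fn1 did not pass the test, while Spp1 was too low to be tested. The background was 23.9% of 16195 genes, 10.1% higher and 13.7% lower in Amhr2+ cells. The median log2 fold change of the 9 genes was -0.866, against -0.00168 over all genes tested. Mesenchyme markers moved the same way, with 6 of 8 lower in Amhr2+ cells and summed levels of 26645 to 28461 CPM against 55724 to 62947 CPM. Smooth muscle marker sums were 1310 to 1959 CPM in Amhr2+ and 2298 to 2558 CPM in Gli1+ libraries. Of these 8 markers 2 passed the test, as lower in Amhr2+ cells (25%, near the 23.9% of all genes). Endothelial marker sums were also lower in Amhr2+ libraries, at 24.1 to 29.8 against 37.4 to 45.4 CPM. Epithelial marker sums were higher there, at 72.2 to 74.6 against 32.4 to 44.1 CPM, as were those of gonad somatic markers, at 72.7 to 121 against 63.0 to 66.1 CPM. Foxl2 made up most of the gonad somatic sums, with means of 99.4 CPM in Amhr2+ and 62.2 CPM in Gli1+ libraries. By the test, 4 of 8 epithelial and 1 of 4 gonad somatic markers passed as higher in Amhr2+ cells. Lower sums in Amhr2+ libraries were also seen for erythroid (1.75 to 2.54 against 7.84 to 8.67 CPM) and germ cell markers (15.6 to 28.7 against 29.8 to 38.0 CPM). The part of any of these lists in the differences was not tested.

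**Figure D1:**
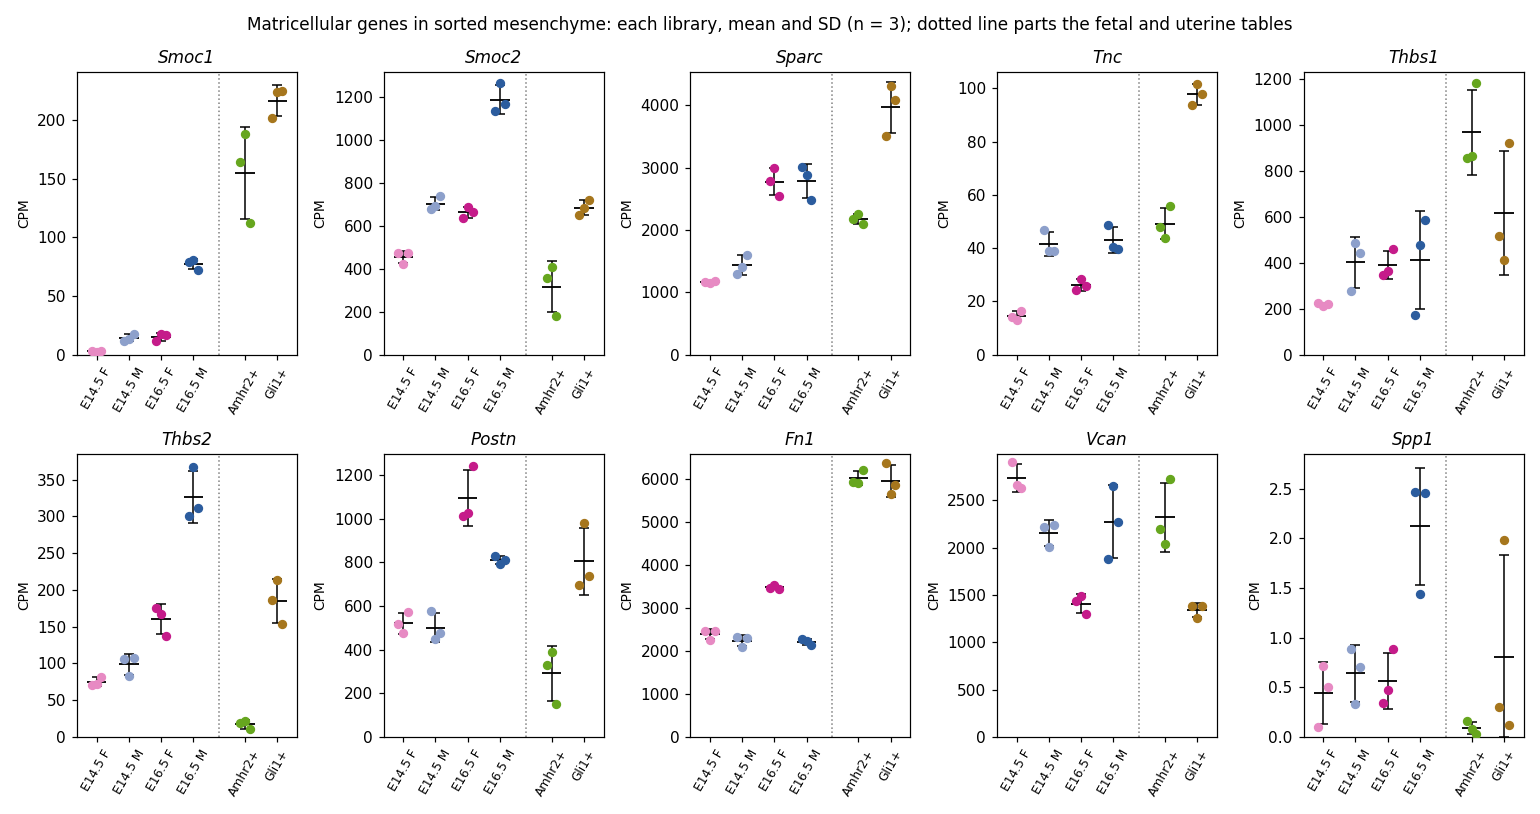
Expression of the 10 genes in each RNA-seq library, as CPM on linear axes that start at 0; points are libraries, horizontal bars are group means and error bars are SD (n = 3 per group), cut off at 0, and a dotted line separates the fetal from the uterine table. Smoc1 climbs to 72.3 to 81.1 CPM in E16.5 male libraries, Vcan dips in E16.5 females, and Thbs2 drops to between 10.5 and 22.2 CPM in uterine Amhr2+ cells.

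**Figure D2:**
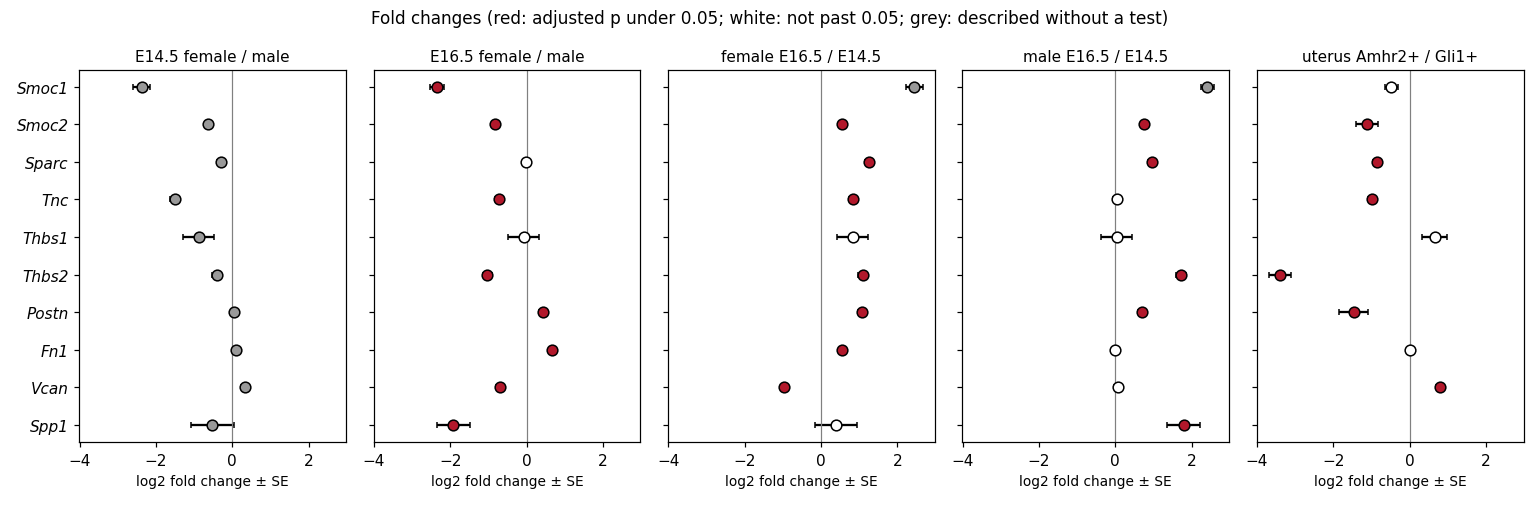
Log2 fold changes of the 10 genes with their standard errors, first-named group against second, in the 5 pairwise contrasts. Red points passed an adjusted p of 0.05, white points did not, and grey points are descriptions without a test; Smoc1 lies near -2.4 in the female against male contrast at both ages.

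Smoc1 and Smoc2 encode calcium-binding glycoproteins of the SPARC family; SMOC1 is known as a basement-membrane protein that antagonises BMP signalling in development. Smoc1 (chr12:81026808-81186414, plus strand, mm10) had the widest range of the members in the fetal table, as the ratio of its highest to its lowest library. Its levels were 2.77, 2.11 and 3.48 CPM in the E14.5 female libraries, from 53 to 96 counts, and 12.03, 13.4 and 17.7 CPM in the E14.5 male ones. The E16.5 female libraries had 11.3, 17.6 and 16.8 CPM, and the E16.5 male libraries 78.7, 81.1 and 72.3 CPM. The male libraries stood above the female ones at each age without overlap. The E14.5 male and E16.5 female groups overlapped, with means of 14.4 ± 2.98 and 15.3 ± 3.41 CPM (SD, n = 3 each), so the order ran from E14.5 females through those overlapping groups to E16.5 males.

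At E16.5 Smoc1 was 5.07-fold lower in females, a log2 fold change of -2.34 (SE 0.179, edgeR adjusted p = 9.7e-07). The E14.5 difference on which the gene was selected was -2.37 (SE 0.219). With age its log2 fold change was 2.45 (SE 0.219) in females and 2.41 (SE 0.18) in males, and the difference between those changes was 0.03 (SE 0.275). In the uterus Smoc1 was at 164, 189 and 112 CPM in Amhr2+ libraries and at 201, 224 and 225 CPM in Gli1+ ones. All Amhr2+ libraries lay below the Gli1+ ones, but the log2 fold change of -0.48 (SE 0.173) had an edgeR adjusted p of 0.0845. That call turned with the libraries used: the adjusted p was 0.0303 without Amhr2+ replicate 2, where the log2 fold change was -0.64, and 0.0465 without Amhr2+ replicate 3, where it was -0.30. DESeq2 gave an adjusted p of 0.0154. A microRNA gene, Mir3067, lies within Smoc1 on the same strand and reached at most 4 counts in a fetal library.

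By Pearson correlation of log2 CPM over the 12 fetal libraries, among 10456 genes, the profiles most like that of Smoc1 were those of Fam65b (r = 0.99), Smoc2 (0.988), Ltbp2 (0.987), Akr1b10 (0.986) and Zbtb16 (0.984). These 12 points form 4 groups, so the values mostly compare group means and are given as a description. Ranked by Spearman correlation instead, none of the 5 stayed among the first 5, and Smoc2 stood at rank 7. Ltbp2, which encodes a latent TGF-beta binding protein, averaged 2.91, 8.83, 9.13 and 39.6 CPM in E14.5 females, E14.5 males, E16.5 females and E16.5 males. Zbtb16, which encodes a zinc-finger transcription factor, averaged 0.0959, 1.27, 2.26 and 12.53 CPM in the same order, while Akr1b10 spanned only 7.08 to 10.6 CPM. The E14.5 female mean of Zbtb16 was below the level of 3 counts in those libraries (0.1 to 0.122 CPM). Among the other members, the correlation with Smoc1 was 0.916 for Thbs2, 0.851 for Tnc, 0.79 for Sparc and 0.754 for Spp1. It was 0.488 for Postn, 0.482 for Thbs1, -0.121 for Fn1 and -0.272 for Vcan.

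**Figure D3:**
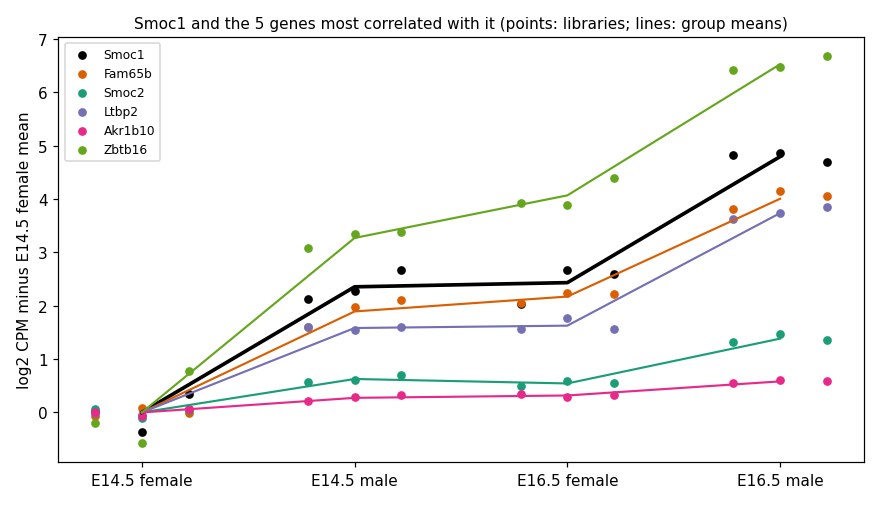
Log2 CPM (prior count 2) of Smoc1 and of the 5 genes with the highest Pearson correlation to it, each minus its own mean in E14.5 female libraries, in the 12 fetal libraries (points) with lines through the group means. All are lowest in E14.5 females and highest in E16.5 males but differ in span: Zbtb16 and Smoc1 climb furthest, and Akr1b10 moves little.

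Smoc2 (chr17:14279506-14404790, plus strand) ran parallel to Smoc1 at a far higher level and with smaller folds. It stood at 473, 422 and 471 CPM in E14.5 females, 679, 692 and 738 in E14.5 males, 639, 689 and 663 in E16.5 females and 1136, 1264 and 1166 in E16.5 males. As for Smoc1, the E14.5 male and E16.5 female libraries overlapped and the sexes did not overlap at either age. The log2 fold change, female against male, was -0.84 (SE 0.0681, edgeR adjusted p = 1.86e-07) at E16.5, and -0.63 (SE 0.068, not tested) at E14.5. Smoc2 rose with age by 0.54 in females (edgeR adjusted p = 1.61e-05) and by 0.76 in males (7.19e-07), and the interaction of -0.22 did not pass the test (0.185).

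In the uterus Smoc2 was at 359, 410 and 182 CPM in Amhr2+ cells and at 651, 685 and 720 CPM in Gli1+ cells. Amhr2+ replicate 3 was well below the other Amhr2+ libraries, and all 3 were below the Gli1+ ones. Amhr2+ cells had less Smoc2, by a log2 fold change of -1.11 (SE 0.292, edgeR adjusted p = 0.0414). Without Amhr2+ replicate 3 it was -0.83 (adjusted p = 0.000406). The call was lost without Amhr2+ replicate 1 or any of Gli1+ replicates 1, 2 and 3, with adjusted p of 0.0979, 0.081, 0.0962 and 0.0742.

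Sparc (chr11:55394500-55423183, minus strand), which encodes the founding member of that family, a collagen-binding protein of mineralised and remodelling tissue, rose with age in both sexes and did not differ by the test between them at E16.5. Female and male libraries overlapped at E16.5, with 2787, 2994 and 2548 CPM against 3007, 2876 and 2478 CPM. Their log2 fold change was -0.01 (SE 0.09, edgeR adjusted p = 0.974). At E14.5 the levels were 1160, 1147 and 1181 CPM in females and 1292, 1407 and 1603 CPM in males. Sparc thus rose by 1.26 on the log2 scale in females (SE 0.0915, edgeR adjusted p = 5.2e-08) and by 0.96 in males (SE 0.0909, 1.24e-06), and these changes did not differ by the interaction test (0.17). In the uterus it was lower in Amhr2+ cells, at 2179, 2252 and 2091 CPM against 3508, 4302 and 4081 CPM, a log2 fold change of -0.87 (SE 0.0816, edgeR adjusted p = 0.000224).

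Thbs1 and Thbs2 encode thrombospondins 1 and 2, trimeric proteins that restrain blood-vessel growth; thrombospondin 1 is also a known activator of latent TGF-beta. Thbs2 (chr17:14665500-14694235, minus strand) changed in every comparison tested. The promoter of Thbs2 is shown because the gene had the largest fold among the members in the uterine comparison. The sequence is that of RefSeq on GRCm38.p6 (chr17:14694213-14694512, minus strand, read 5′ to 3′ along the gene), with capitals for the 276 bases that lie under a peak of the deposited ATAC-seq list.
Thbs2 promoter: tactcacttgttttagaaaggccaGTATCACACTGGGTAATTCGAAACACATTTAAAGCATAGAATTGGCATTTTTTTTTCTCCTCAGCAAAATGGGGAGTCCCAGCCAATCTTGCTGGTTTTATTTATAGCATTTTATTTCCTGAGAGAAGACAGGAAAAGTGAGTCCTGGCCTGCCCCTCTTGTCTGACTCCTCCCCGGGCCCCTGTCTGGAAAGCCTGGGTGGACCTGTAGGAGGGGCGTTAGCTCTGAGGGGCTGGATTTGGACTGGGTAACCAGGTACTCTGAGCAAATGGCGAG

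In the fetal table Thbs2 stood at 70.8, 72.0 and 81.7 CPM in E14.5 females and at 107, 82.6 and 108 CPM in males of that age. The E16.5 libraries held 175, 167 and 137 CPM (females) and 300, 367 and 311 CPM (males). The 4 groups were separate, and E16.5 males were the highest. Females had less Thbs2 at E16.5, with a log2 fold change of -1.03 (SE 0.117, edgeR adjusted p = 1.32e-05). The rise with age was 1.09 in females (SE 0.118, edgeR adjusted p = 7.12e-06) and 1.72 in males (SE 0.119, 1.39e-07). The difference between those rises was -0.63 (SE 0.165, edgeR adjusted p = 0.0254). That interaction passed the threshold narrowly, and its adjusted p was 0.0711 without E14.5 female replicate 3, the library with erythroid RNA, and 0.0634 without E16.5 male replicate 2.

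In the uterus Thbs2 was at 19.55, 22.2 and 10.5 CPM in Amhr2+ libraries and 186, 214 and 154 CPM in Gli1+ libraries. Even the highest Amhr2+ library was far below the lowest Gli1+ one. Thbs2 was 10.5-fold lower in Amhr2+ cells, a log2 fold change of -3.40 (SE 0.294, edgeR adjusted p = 0.000779), and -3.14 without Amhr2+ replicate 3.

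Thbs1 (chr2:118111876-118127133, plus strand) varied widely between replicates in some groups. It was at 226, 211 and 219 CPM in E14.5 females, 276, 488 and 443 in E14.5 males, 346, 365 and 459 in E16.5 females and 173, 478 and 586 in E16.5 males. The E16.5 male libraries alone spanned the whole range of the E16.5 females. Neither the sex difference at E16.5 (-0.08, SE 0.4, edgeR adjusted p = 0.915) nor the age difference in females (0.84, SE 0.404, 0.137) or in males (0.04, SE 0.4, 0.964) passed the test. In females, however, no E14.5 library overlapped an E16.5 one, and a fit of the 6 female libraries alone gave an adjusted p of 0.000228.

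Thbs1 is a gene that cells induce rapidly when disturbed, and 10 immediate-early genes such as Fos and Egr1, listed after the values of the members had been seen, were summed in each library. In E16.5 males those sums were 4034, 11721 and 19716 CPM in replicates 1, 2 and 3, the same order as Thbs1. In E16.5 females they were 13627, 9765 and 18003 CPM, with replicate 3 highest for both. In uterine Gli1+ libraries Thbs1 was at 516, 412 and 921 CPM, with sums of 6193, 1136 and 13291 CPM. Replicate 3 was again highest and replicate 2 lowest for both. None of the 10 genes passed the test between the sexes at E16.5, and their part in the spread of Thbs1 was not tested. Uterine Amhr2+ libraries had 857, 868 and 1182 CPM of Thbs1 with sums of 4027, 4016 and 5368 CPM, and overlapped with Gli1+ libraries in both. Between the populations the log2 fold change was 0.65 (SE 0.327, edgeR adjusted p = 0.208). Without Gli1+ replicate 3 it was 1.06 and passed the test (adjusted p = 0.00664). A gene annotated on the opposite strand overlaps Thbs1 and reached at most 48 counts in a fetal library.

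**Figure D4:**
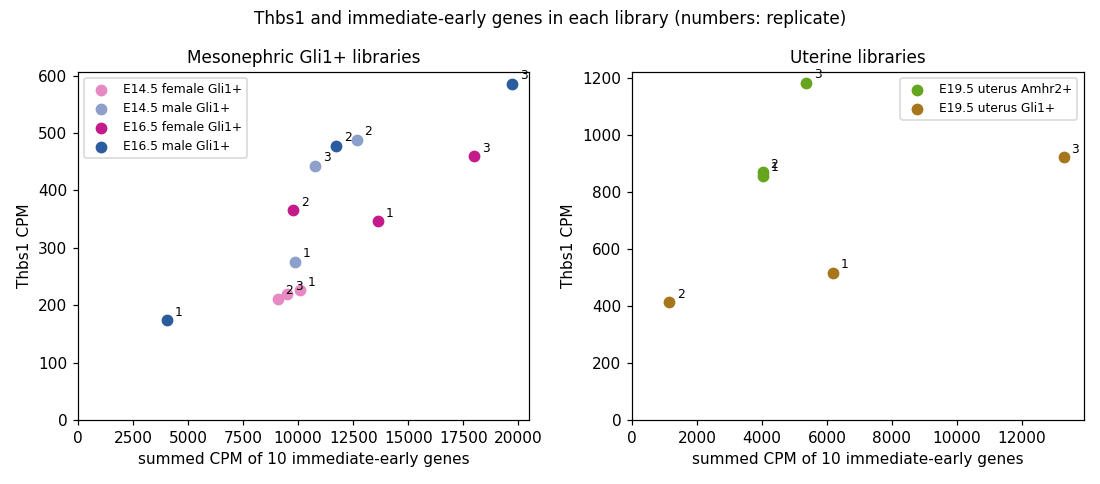
Thbs1 CPM against the summed CPM of 10 immediate-early genes in each library, fetal libraries on the left and uterine libraries on the right, coloured by group, with replicate numbers beside the points. E16.5 male replicate 1 is lowest on both axes among the fetal libraries (173 and 4034 CPM), and uterine Gli1+ replicate 2 is lowest on both among the uterine ones (412 and 1136 CPM).

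Tnc (chr4:63959785-64047015, minus strand) encodes tenascin C, a large hexameric glycoprotein that loosens cell adhesion at sites of mesenchymal condensation and smooth muscle formation. Its levels were 14.1, 13.1 and 16.55 CPM in E14.5 females and 24.2, 28.5 and 25.8 CPM in E16.5 females. In males they were 46.8, 39.0 and 39.0 CPM at E14.5 and 48.5, 40.3 and 39.8 CPM at E16.5. Male libraries were higher than female ones at each age, and within males the ages overlapped. Tnc rose with age in females by 0.84 (SE 0.111, edgeR adjusted p = 2.61e-05), and its change in males was 0.05 (SE 0.104, 0.788). The interaction was 0.80 (SE 0.152, edgeR adjusted p = 0.00271), and the female deficit was -1.51 (SE 0.111, not tested) at E14.5 and -0.71 (SE 0.105, adjusted p = 0.000104) at E16.5. In the uterus Tnc was at 48.0, 44.0 and 55.6 CPM in Amhr2+ and 93.7, 102 and 97.8 CPM in Gli1+ cells, again without overlap, with a log2 fold change of -0.99 (SE 0.0896, edgeR adjusted p = 0.000187).

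Postn (chr3:54361109-54391037, plus strand) encodes periostin, a protein that promotes collagen cross-linking and binds tenascin C and integrins. Its promoter is shown because the deposited peak over it is short and contains the start of the gene. In the RefSeq sequence (GRCm38.p6, chr3:54360857-54361156, plus strand) capitals mark the 92 bases under the peak, which include 1 match to the TATA-box letters TATAAA, found on either strand in 13.6% of the 32851 promoters of the table. On either strand, 1 match also lay in the Thbs2 promoter, in the upstream Spp1 promoter and in each Tnc promoter. The Tnc promoters overlap, and their match is the same site. The other promoters of Postn and Spp1 and those of Sparc and Vcan held no match.
Postn promoter: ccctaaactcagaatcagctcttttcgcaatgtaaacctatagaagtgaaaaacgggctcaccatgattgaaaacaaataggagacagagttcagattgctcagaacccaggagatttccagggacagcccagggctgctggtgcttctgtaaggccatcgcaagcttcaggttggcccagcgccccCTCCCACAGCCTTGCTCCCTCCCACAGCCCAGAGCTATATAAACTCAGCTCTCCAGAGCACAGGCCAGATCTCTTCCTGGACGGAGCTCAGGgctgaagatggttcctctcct

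Postn stood at 518, 475 and 571 CPM in E14.5 females and 576, 450 and 476 CPM in males of that age, where the sexes overlapped. By E16.5 it had reached 1014, 1027 and 1242 CPM in females and 831, 792 and 811 CPM in males, where every female library was higher. The difference at E16.5 was 0.43 (SE 0.0989, edgeR adjusted p = 0.00399), opposite in direction to those of Tnc, Thbs2 and the SMOC genes. Postn rose with age by 1.07 in females (SE 0.1, edgeR adjusted p = 7.4e-07) and by 0.70 in males (SE 0.0993, 8.59e-05), and the interaction of 0.37 did not pass the test (0.112).

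In the uterus Postn was at 331, 391 and 151 CPM in Amhr2+ and 697, 980 and 737 CPM in Gli1+ libraries. The groups did not overlap, and Amhr2+ replicate 3 was the lowest, as for Smoc1, Smoc2 and Thbs2. This log2 fold change of -1.47 (SE 0.377) had an edgeR adjusted p of 0.0437. Without Amhr2+ replicate 3 it was -1.15 (adjusted p = 0.00461). Leaving out any other single library ended the call, with adjusted p of 0.123 and 0.0654 without Amhr2+ replicates 1 and 2 and of 0.0753, 0.0963 and 0.0734 without Gli1+ replicates 1, 2 and 3.

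Fn1 (chr1:71585520-71653200, minus strand) and Vcan (chr13:89655312-89742509, minus strand) encode fibronectin, the main integrin-binding scaffold of young matrix, and versican, a large proteoglycan that binds hyaluronan and keeps matrix loose. In E16.5 females they moved in opposite directions. Fn1 was at 3466, 3526 and 3435 CPM in E16.5 female libraries and between 2088 and 2458 CPM in all 9 other fetal libraries. Female cells at E16.5 therefore stood alone, while E14.5 females, E14.5 males and E16.5 males overlapped. Fn1 differed by 0.65 (log2) against E16.5 males (SE 0.0652, edgeR adjusted p = 1.7e-06) and 0.54 against E14.5 females (SE 0.0651, 1.09e-05). In males Fn1 differed by -0.02 with age (SE 0.0649, 0.886), and the interaction was 0.56 (SE 0.0918, edgeR adjusted p = 0.000859).

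Vcan was at 2908, 2663 and 2635 CPM in E14.5 females, 2222, 2003 and 2242 in E14.5 males and 1886, 2658 and 2276 in E16.5 males. In E16.5 females it was at 1435, 1492 and 1300 CPM, below every other fetal library. Vcan fell by 0.96 with age in females (SE 0.103, edgeR adjusted p = 3.29e-06). Its change in males was 0.08 (SE 0.102, 0.637), and the interaction of -1.03 (SE 0.144, 0.000215) was the largest in size among the members that passed. The sexes were reversed between the ages: the female minus male difference was 0.34 (SE 0.102, not tested) at E14.5 and -0.69 (SE 0.102, edgeR adjusted p = 0.000106) at E16.5. A gene on the opposite strand, RP24-163G22.1, overlaps Vcan and reached at most 141 counts in a fetal library.

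In the uterus Vcan was higher in Amhr2+ cells, at 2195, 2037 and 2730 CPM against 1385, 1260 and 1387 CPM. No library overlapped, and the log2 fold change was 0.79 (SE 0.107, edgeR adjusted p = 0.00144). Fn1 was at 5932, 5910 and 6212 CPM in Amhr2+ and 6359, 5644 and 5848 CPM in Gli1+ libraries, which overlapped, with a log2 fold change of 0.02 (SE 0.0621, edgeR adjusted p = 0.876).

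Spp1 (chr5:104435118-104441050, plus strand) encodes osteopontin, a phosphorylated integrin ligand made by bone cells, macrophages and many epithelia. It was near the limit of detection in these cells, and it was the member with no ATAC-seq peak within 1 kb of a start site. Its upstream promoter is shown for that reason (RefSeq, GRCm38.p6, chr5:104434861-104435160, plus strand); no base lies under a peak, so all letters are in lower case.
Spp1 promoter: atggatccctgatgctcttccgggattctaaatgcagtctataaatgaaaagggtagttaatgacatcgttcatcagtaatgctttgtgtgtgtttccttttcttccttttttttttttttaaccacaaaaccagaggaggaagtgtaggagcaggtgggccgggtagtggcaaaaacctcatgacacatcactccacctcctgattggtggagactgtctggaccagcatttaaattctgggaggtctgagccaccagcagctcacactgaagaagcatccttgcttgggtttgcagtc

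Spp1 gave 3, 18 and 14 counts in E14.5 females, 21, 14 and 39 in E14.5 males, 14, 19 and 35 in E16.5 females and 102, 54 and 152 in E16.5 males. In CPM the E16.5 female libraries had 0.343, 0.468 and 0.884 and the E16.5 male ones 2.47, 1.44 and 2.46, which did not overlap. The log2 fold change between the sexes was -1.92 (SE 0.443, edgeR adjusted p = 0.00516), and the rise with age in males was 1.79 (SE 0.443, 0.00958). In females the age difference was 0.39 (SE 0.56, 0.611) and the groups overlapped. Immune markers summed to 32.6, 47.7 and 81.5 CPM in E16.5 females and to 13.8, 45.8 and 48.3 CPM in males, and 6 of 8 were higher in females. The part of immune cells in the Spp1 values was not tested. In the uterus Spp1 gave 6, 3 and 1 counts in Amhr2+ libraries and 10, 64 and 4 in Gli1+ libraries and was not tested.

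Compared per kilobase of exon, so that long and short transcripts can be set side by side, Sparc was the most abundant member in all 6 groups and Spp1 the least. Sparc had 427 CPM per kb in E14.5 females and 1457 CPM per kb in uterine Gli1+ cells, and Spp1 0.268 and 0.485 CPM per kb. Fn1 was second in every group except E16.5 males, where Smoc2 was second with 391 ± 22.04 CPM per kb (SD, n = 3) followed by Fn1 with 261 ± 8.91. The rank of Vcan moved from 3 in E14.5 females, at 204 CPM per kb, to 5 in E16.5 females, at 105. Thbs2 stood at 31.3 CPM per kb in uterine Gli1+ cells, above Tnc at 12.6, and at 2.96 in Amhr2+ cells, below Tnc at 6.33. Smoc1 and Tnc changed places with age: in E14.5 males Smoc1 was at 4.11 and Tnc at 5.35 CPM per kb, and in E16.5 males at 22.1 and 5.52. These lengths come from an annotation of all exons, so a gene whose shorter transcripts dominate is placed too low.

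Other genes of the same pathways were counted from 5 lists, whose counts are to be read against the shares of all genes that passed: 27.3% at E16.5, 13.2% higher and 14.1% lower in females, and 23.9% in the uterus, 10.1% higher and 13.7% lower in Amhr2+ cells. Of 13 tested sister genes, close relatives of the members, 6 passed at E16.5, 3 in each direction, with a median log2 fold change of -0.04. Spock3, a proteoglycan of the SPARC family, was 22.2 CPM in females and 4.52 CPM in males (log2 fold change 2.30, edgeR adjusted p = 2.32e-09). Tgfbi, a periostin relative, was likewise higher in females (890 against 257 CPM, 1.79, 3.51e-08), and Thbs4 was lower (5.95 against 10.98 CPM, -0.88, 5.22e-05). In the uterus 8 of 12 sister genes passed, 7 of them lower in Amhr2+ cells, with a median of -0.57. Examples are Tnxb, which encodes tenascin X (24.2 against 122 CPM, -2.33, edgeR adjusted p = 0.000509), Thbs3 (74.9 against 153 CPM, -1.03, 0.000202) and Spock1 (2.36 against 17.2 CPM, -2.84, 0.00453).

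Among 16 tested receptors for these proteins, 12 passed at E16.5, 8 lower and 4 higher in females, with a median of -0.17. The integrin subunit gene Itga4, whose product pairs to bind fibronectin and osteopontin, had 24.1 CPM in females against 157 CPM in males (-2.70, edgeR adjusted p = 1.53e-06). Itgb8, whose product helps activate latent TGF-beta, was at 23.8 against 50.5 CPM (-1.08, 2.42e-05), and Stab1, a scavenger receptor that takes up SPARC and is common on macrophages, was higher in females (2.26, 0.000126), with a mean of 3.43 CPM in males. In the uterus 4 of 15 receptors passed (26.7%, near the 23.9% of all genes), 3 of them lower in Amhr2+ cells. The hyaluronan receptor gene Cd44 was at 6.14 against 22.9 CPM (-1.90, edgeR adjusted p = 1.42e-05), and Itga9, a subunit of a tenascin and osteopontin receptor, was higher in Amhr2+ cells at 171 against 111 CPM (0.63, 0.00228).

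Of 18 genes for hyaluronan and for making or cutting versican, 11 passed at E16.5, 7 lower and 4 higher in females, with a median of -0.13. The versican-cleaving protease gene Adamts9 (106 against 197 CPM, -0.89, edgeR adjusted p = 8.76e-07) and the hyaluronan synthase gene Has2 (111 against 168 CPM, -0.60, 0.000126) were lower in females, in the same direction as Vcan. Chst11, a chondroitin sulfotransferase gene, was higher (40.4 against 25.4 CPM, 0.67, 1.78e-05). In the uterus 7 of 18 passed, all lower in Amhr2+ cells, in the direction opposite to Vcan: Adamts1 was at 213 against 682 CPM (-1.68, edgeR adjusted p = 5.58e-05), Adamts5 at 48.0 against 126 CPM (-1.39, 0.00157) and the link-protein gene Hapln1 at 2.92 against 17.1 CPM (-2.54, 3.06e-05).

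Of 17 genes of the BMP pathway, on which SMOC1 is known to act, 7 passed at E16.5 (41.2%, against 27.3% of all genes), 3 higher and 4 lower in females, with a median of 0.05. The ligand gene Bmp4 averaged 11.7 CPM (females) and 65.0 CPM (males) (-2.47, edgeR adjusted p = 4.93e-08), a size close to that of Smoc1. Bmp6 was also lower in females (7.66 against 18.8 CPM, -1.29, 1.14e-06) and Bmp7 was higher (17.1 against 7.57 CPM, 1.18, 3.28e-06). In the uterus 9 of 17 passed, 5 higher and 4 lower in Amhr2+ cells; Bmp2 (31.3 against 15.6 CPM, 1.01, edgeR adjusted p = 8.53e-05) and Bmp7 (30.9 against 14.8 CPM, 1.06, 0.000274) were higher, and the receptor gene Bmpr1b was lower (5.74 against 15.1 CPM, -1.40, 0.000173).

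Of 13 genes of the TGF-beta pathway, 8 passed at E16.5, 3 higher and 5 lower in females, with a median of -0.06. Ltbp2 was at 9.13 against 39.6 CPM (-2.12, edgeR adjusted p = 1.55e-10), Tgfb1 at 6.30 against 10.8 CPM (-0.78, 0.000213) and Ltbp4 at 1095 against 1599 CPM (-0.55, 6.48e-06). In the uterus 7 of 13 passed, all lower in Amhr2+ cells, with a median of -0.36; Ltbp2 again led, at 9.23 against 34.0 CPM (-1.87, edgeR adjusted p = 0.00484), and the receptor genes Tgfbr3 (-0.85, 0.000427) and Tgfbr2 (-0.56, 0.000625) followed.

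ATAC-seq, which cuts and tags open chromatin, was available as 1 unified list of 71040 peaks for all fetal Gli1+ samples, with no sample or height column, so accessibility could not be compared between groups. A peak lay within 1 kb of an annotated start site for 9 of the 10 members, all but Spp1, against 87.4% of 14577 tested fetal genes. Smoc1, a gene of 160 kb, held 8 peaks, 7 of them in its body away from exons, and Smoc2 held 9. Fn1 had a single peak, at its start, within the gene and 10 kb on either side. With peaks narrower than the median width of 233 bp left out, 7 of the 10 members had a peak within 1 kb of a start, against 80.6% of the tested genes.

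**Figure D5:**
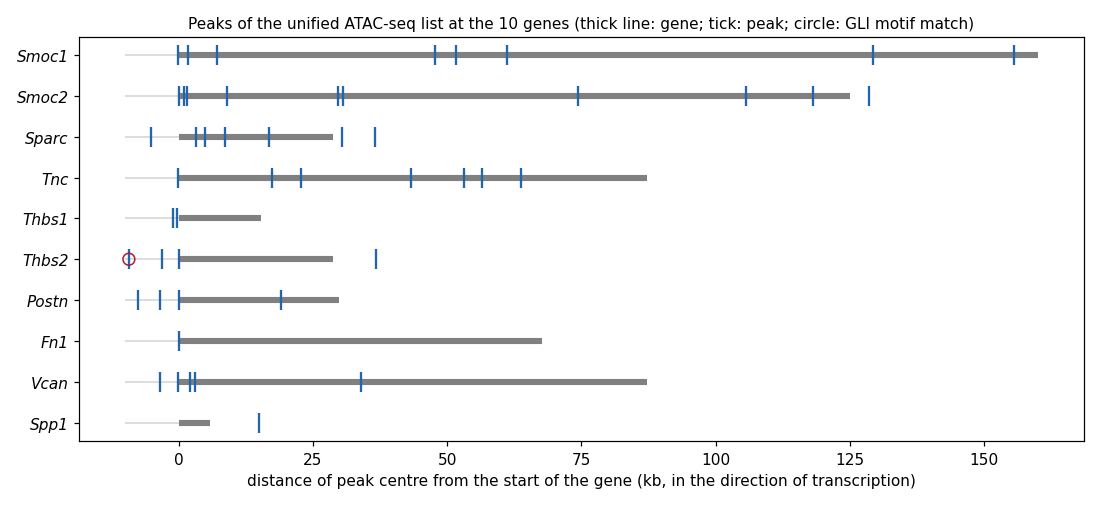
Peaks of the unified ATAC-seq list at the 10 genes, by distance of the peak centre from the start of the gene in kb, in the direction of transcription; thick lines are gene bodies, ticks are peaks and a circle is a match to the GLI letters. Smoc1, Smoc2 and Tnc carry peaks along their bodies, Fn1 has 1 peak at its start, Spp1 has none in its body, and the circle lies upstream of Thbs2.

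Since the cells were labelled through Gli1, each peak was searched over 300 bp at its centre for the GLI binding letters GACCACCCA on both strands. They occurred in 0.462% of 70999 peaks on chromosomes 1 to 19, X and Y. Among the peaks of the members 1 held them, 9264 bp upstream of the Thbs2 start (peak chr17:14703385-14703613). The start of another gene, Gm3222, is closer to that peak, at 5567 bp. The window is shown because it holds the only match among the members, read along the Thbs2 strand on GRCm38.p6 (chr17:14703349-14703648, minus strand), with the matched letters in capitals.
Thbs2 upstream peak: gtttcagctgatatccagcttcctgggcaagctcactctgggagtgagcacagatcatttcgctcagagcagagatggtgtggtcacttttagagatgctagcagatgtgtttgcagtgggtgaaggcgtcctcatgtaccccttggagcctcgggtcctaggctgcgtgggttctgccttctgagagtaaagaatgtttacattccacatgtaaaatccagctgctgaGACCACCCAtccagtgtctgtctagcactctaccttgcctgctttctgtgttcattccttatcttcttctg
A letter match describes the sequence and is not a measured binding site. None of the 9 promoter sequences available for Postn, Tnc, Spp1, Sparc, Vcan and Thbs2 held those letters, which occur in 0.253% of all promoters in the table, nor the TEAD letters GGAATG (14.7% of promoters) or the AP-1 letters TGANTCA (7.81%).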

How the data were processed

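RNA-seq of sorted mesenchyme was deposited by the authors as raw read counts per gene, in 1 table of 12 fetal and 1 of 6 uterine libraries. Per the labels' protocols the fetal kit was non-stranded and the uterine kit stranded; use of strand in counting is not given in the sources used here, so overlapping and antisense genes are uncertain. The submitters' processing notes name STAR 2.5, Subread 1.5.0-p1 with featureCounts, Bowtie 1.2, MACS2 2.1.1 and mm10. Peaks were deposited as positions without scores.

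The counts were tested with edgeR 4.0.16 (quasi-likelihood, robust, filterByExpr, TMM, Benjamini-Hochberg over all genes tested, threshold 0.05) in R 4.3.3: 1 model of 4 group means for the fetal table (17858 genes) and 1 for the uterine table (16195 genes). CPM uses TMM-scaled library sizes; standard errors are the log2 fold change divided by the root of F. The procedure was run on simulated counts with the same spread for every gene and large changes only. That run does not cover smaller changes or replicates as uneven as some here. DESeq2 1.42.0, other scalings, no filter, a replicate block, fits of 6 libraries and leaving out each library were alternatives.

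All members are named; from each pathway list and in 2 contrasts, up to 3 genes past the threshold with the largest fold and a mean of 10 CPM or more in the higher group; and the 5 genes most correlated with Smoc1. The members and lists were chosen with earlier results of these data known. Counts of duplicate libraries were checked and no pair agreed within sampling noise. Same-numbered libraries deviated together at E16.5 (correlations between sexes of 0.28, 0.11 and 0.4, all above the limit of 0.1), so the numbers count as pairs there. Female replicate 2 and male replicate 1 also reached 0.11, and the pairing comes from the data alone. In the uterus the same-numbered correlations were 0.0018, 0.22 and 0.24, not all above the limit. The tests in the Results did not use pairs, and calls that changed with a replicate block are given below. Start sites and exon lengths are from GENCODE vM21 and promoter sequences from RefSeq, both on GRCm38, which is mm10.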

Additional observations from a re-analysis of the deposited data

Results flagged for a closer look

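Between the sexes, 4 genes changed differently from E14.5 to E16.5 by the test of the difference itself (edgeR, interaction term). The change in females minus that in males was 0.80 for Tnc (SE 0.152, adjusted p = 0.00271), -0.63 for Thbs2 (SE 0.165, 0.0254), 0.56 for Fn1 (SE 0.0918, 0.000859) and -1.03 for Vcan (SE 0.144, 0.000215), all on the log2 scale.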

How the results depend on the processing

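The number of members called stayed within 1.5 times its value under every alternative run: 8 of 10 for sex at E16.5 throughout, 7 or 8 of 9 for age in females, 5 of 9 for age in males, 3 to 5 of 9 for the interaction and 4 to 7 of 9 in the uterus. With the replicate block, calls were gained by Thbs1 in female age (adjusted p = 0.00977) and in the uterus (0.0158) and by Postn in the interaction (0.0471), and lost by uterine Postn (0.0639) and Smoc2 (0.125); no other member's call changed with the block, and outside E16.5 the libraries share only a number. Same-numbered correlations there ran from -0.081 to 0.24. Without the low-count filter the adjusted p was 0.122 for uterine Postn, 0.142 for uterine Smoc2 and 0.052 for the Thbs2 interaction, and with library size as the only scaling it was 0.0513 for uterine Postn. That scaling moved the split of all uterine calls from 1642 higher and 2224 lower to 2849 and 1640, and that of age in males from 2340 and 1828 to 1847 and 2641. Differences near 0 that did not pass the test changed sign: with the replicate block, Thbs1 was 0.0758 for sex at E16.5 and -0.0956 for age in males; with library size alone, Thbs1 was -0.0386 and Tnc -0.0045 for age in males; without the filter, Fn1 was 0.0101 for age in males. Leaving out 1 library at a time gave ranges of -0.0946 to 0.0534 for Sparc and -0.447 to 0.25 for Thbs1 (sex at E16.5), -0.111 to 0.914 for Spp1 (age in females), -0.0636 to 0.0246 for Fn1, -0.29 to 0.402 for Thbs1, -0.0492 to 0.136 for Tnc and -0.0505 to 0.195 for Vcan (age in males), -0.155 to 0.219 for Smoc1 (interaction), -0.0128 to 0.169 for Postn (sex at E14.5) and -0.0226 to 0.0659 for Fn1 (uterus). The causes were not tested. Depth limits Spp1, whose counts were as low as 1, and floors cover counting error only.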
